A study of Drosophila melanogaster with 2 samples.

Results

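The aminoacyl tRNA synthetase genes of Drosophila melanogaster were examined in a chromatin immunoprecipitation experiment (ChIP-seq) that mapped binding of Ets96B, an ETS-family transcription factor. The members were taken by name from the Ensembl annotation of dm6: protein-coding genes called after an amino acid followed by RS, with the ending -m for mitochondrial forms. This gave 35 of the 13968 protein-coding genes on the chromosome arms, of which 20 are cytosolic and 15 mitochondrial by name. The animals were transgenic flies with Ets96B joined at its C terminus to eGFP, and chromatin came from whole prepupae of mixed sex aged 24 h. The antibody was against GFP, while a second label field names it by Ets96B. There was 1 group, with biological replicates 2 and 3, and no untagged group was analysed here. Whole animals mix all tissues, so a peak can come from any of them, and the labels used here do not give the promoter that drives the fusion.

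Aminoacyl tRNA synthetases join each amino acid to its own tRNA, the step that gives the genetic code its meaning. Animals keep separate enzymes for the cytosol and for mitochondria, and both sets are encoded in the nucleus. Some genes, such as those for glycine and lysine in many animals, serve both compartments. Several cytosolic enzymes sit together in a multi-synthetase complex, held by scaffold proteins. These are housekeeping genes, needed by every growing cell.

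Sequences at 5 intergenic summits show the DNA described below. Each runs 5′ to 3′ on the strand of the named gene and covers up to 75 bp on both sides of the summit, read from the RefSeq copy of dm6. Capitals mark any of the 8 searched words that were found, here the ETS word CAGGAA upstream of IleRS and the homeodomain core TAATTA upstream of ProRS-m. The IleRS sequence lies at chr3L:22288419-22288569 on the plus strand, GluProRS at chr3R:23958443-23958593 on the minus strand, and ThrRS at chr2L:12103504-12103654 on the plus strand. ArgRS-m lies at chr3R:7886824-7886974 on the plus strand and ProRS-m at chr3L:2651904-2652054 on the minus strand. The first 3 had the highest signal values among cytosolic members whose summit lies between genes. ArgRS-m is 1 of 2 mitochondrial genes with a reproducible summit and the weaker one by signal value. The other, CysRS-m, is not shown. The ProRS-m sequence is centred on its replicate 3 summit, since the gene has no reproducible one, while the others are centred on reproducible summits. ProRS-m stood out between the peak lists, as described below.
IleRS: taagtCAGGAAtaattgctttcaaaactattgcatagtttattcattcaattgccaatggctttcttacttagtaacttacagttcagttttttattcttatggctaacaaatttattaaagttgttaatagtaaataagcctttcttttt
GluProRS: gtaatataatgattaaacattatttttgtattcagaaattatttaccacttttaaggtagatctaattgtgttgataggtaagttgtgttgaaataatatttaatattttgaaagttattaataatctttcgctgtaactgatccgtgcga
ThrRS: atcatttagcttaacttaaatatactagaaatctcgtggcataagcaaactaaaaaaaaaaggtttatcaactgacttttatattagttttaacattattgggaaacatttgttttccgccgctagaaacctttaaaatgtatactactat
ArgRS-m: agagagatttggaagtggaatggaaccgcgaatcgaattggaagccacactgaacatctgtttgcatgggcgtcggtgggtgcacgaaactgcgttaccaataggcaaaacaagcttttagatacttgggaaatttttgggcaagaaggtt
ProRS-m: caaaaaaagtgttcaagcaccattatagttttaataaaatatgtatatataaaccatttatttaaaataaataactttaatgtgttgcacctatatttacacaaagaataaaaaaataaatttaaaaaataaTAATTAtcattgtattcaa

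Cytosolic synthetase genes carried reproducible summits more often than mitochondrial ones. A gene was called occupied if at least 1 of its transcription start sites (TSSs) had a summit at most 500 bp away. Of the 20 cytosolic genes, 10 were occupied (50%, exact 95% interval 27.2 to 72.8), and of the 15 mitochondrial genes, 2 were (13.3%, 1.66 to 40.5). Together 12 of 35 genes were occupied (34.3%, 19.1 to 52.2), against 20.5% of all protein-coding genes. In this list the cytosolic share was above the background, which lies outside its interval, but this did not hold in every list, as given below. The mitochondrial share was lower than 20.5%, but its interval includes that value, as does the interval of all members. The intervals of the 2 forms overlap, they cover counting error only, and the difference between the forms was not tested, since genes are not replicates.

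Each replicate on its own gave the same order of the forms but not the same distance between them. Among the 8015 strongest peaks of replicate 2, as many as the reproducible list holds, 11 cytosolic genes (55%) and 2 mitochondrial genes (13.3%) were occupied, against 21.5% of all genes. Among the 8015 strongest of replicate 3 the counts were 9 (45%) and 4 (26.7%), against 20.4%. In replicate 3 the mitochondrial share thus stood above the background, while in replicate 2 it stood below. Requiring a summit among the strongest peaks of both replicates left 9 cytosolic (45%) and 2 mitochondrial genes (13.3%), against 17.3% of all genes. With every one of the 30000 peaks of a replicate list, 15 cytosolic and 6 mitochondrial genes were occupied in replicate 2 (45.5% of all genes) and 12 and 5 in replicate 3 (40.6%). A summit in both full lists was present at 12 cytosolic genes (60%) and 5 mitochondrial genes (33.3%), against 36.6%. The pooled list of 30000 peaks gave 12 cytosolic (60%) and 3 mitochondrial genes (20%), against 40.3%. With all peaks of replicate 3, of both replicates or of the pooled list, the cytosolic interval was 36.1 to 80.9. It included the share of all genes in each of these cases. With the strongest peaks and with all peaks of replicate 2, the share of all genes lay below the cytosolic interval.

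**Figure D1:**
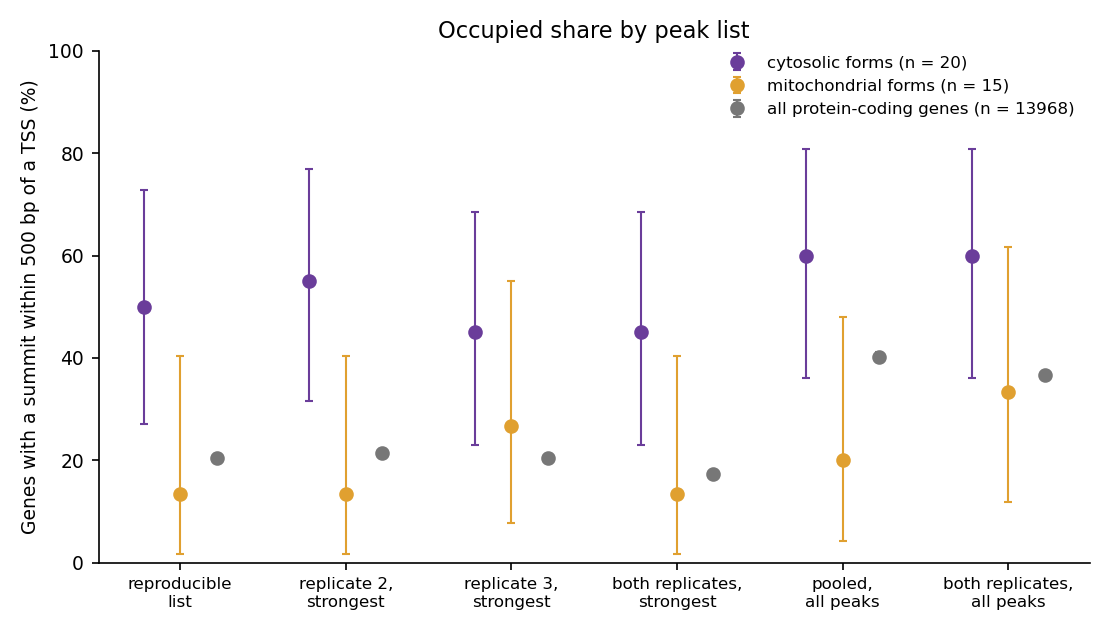
Percent of genes with a summit within 500 bp of a TSS in 6 ways of calling, for cytosolic forms, mitochondrial forms and all protein-coding genes; bars are exact 95% binomial intervals and cover counting error only. The cytosolic point is the highest in each column, from 45% to 60%, and the mitochondrial point runs from 13.3% to 33.3%.

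Read amino acid by amino acid, no reproducible summit was found at both forms of the same enzyme, while weaker peaks gave such cases. For 12 amino acids both forms share a plain name in the annotation. In the reproducible list, 7 of these pairs were occupied at the cytosolic gene only (Ala, Asn, Asp, Ile, Met, Ser and Val), 2 at the mitochondrial gene only (Arg and Cys), 3 at neither (Leu, Trp and Tyr) and 0 at both. With 20.5% of all genes occupied and 2 mitochondrial genes among these 12 pairs, few pairs could be occupied at both. The 0 therefore does not show that the forms exclude each other. The 8015 strongest peaks of replicate 2 gave 8 cytosolic only, 1 mitochondrial only, 3 neither and 0 both. Those of replicate 3 gave 6, 3, 3 and 0 in the same order. With all peaks, both forms were occupied for Arg in the pooled list and in each replicate list, and for Leu in replicate 2. The remaining members have no such partner, and among them GluProRS, GlyRS and ThrRS were occupied. GlnRS, HisRS, LysRS, alpha-PheRS, beta-PheRS, GluRS-m, PheRS-m and ProRS-m were not.

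The strongest summits belonged to the cytosolic genes for serine, isoleucine, and glutamate with proline. The signal value is the authors' own score of a peak and orders peaks within a list. It ran from 148 to 5811 over the reproducible list, with a median of 293. SerRS, which charges serine tRNAs including the selenocysteine one, had a signal value of 889.7 and rank 881 of 8015, with rank 1381 in replicate 2 and 710 in replicate 3. IleRS, for isoleucine, had 841 and rank 984, with ranks 951 and 1051. GluProRS, which carries the glutamate and the proline enzyme in 1 chain, had 660.2 and rank 1456, with ranks 1559 and 1478. These were the top members in all 3 lists, and the replicates placed IleRS and GluProRS closely while SerRS differed more.

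A middle group of cytosolic genes followed. ThrRS had a signal value of 355 and rank 3217, with rank 2780 in replicate 2 and 3676 in replicate 3. MetRS, which also charges the initiator tRNA, had 328 and rank 3536, with ranks 4541 and 3214. AspRS carried 2 reproducible summits, 201 bp apart, with signal values of 300.2 and 160.1; its best ranks were 3905, and 2751 and 5200 in the replicates. ValRS had 230.1 and rank 5164, with ranks 4713 and 6480. Replicate 2 ranked ThrRS, AspRS and ValRS higher and replicate 3 ranked MetRS higher, so neither library led throughout.

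GlyRS, AsnRS and AlaRS were the weakest of the occupied cytosolic genes, and AlaRS stood near the end of the reproducible list. GlyRS had a signal value of 205 and rank 5813, with ranks 4489 in replicate 2 and 6701 in replicate 3. AsnRS had 199.8 and rank 5980, with ranks 7961 and 5089. AlaRS had 150.2 and rank 7894, and its ranks were 7174 and 8533. AlaRS was thus just inside the list, while ArgRS was just outside it, at pooled rank 8455 with a signal value of 139.7 and ranks 7883 and 9518. The median signal value was 300.2 over the 11 cytosolic summits and 301 over all 2456 promoter summits, and it was 230.1 over all 13 synthetase summits.

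Both occupied mitochondrial genes were of modest rank. CysRS-m, the mitochondrial cysteine enzyme, had a signal value of 211 and rank 5643, with ranks 7651 in replicate 2 and 5087 in replicate 3. ArgRS-m had 167 and rank 7109, with ranks 9150 and 6559. Replicate 3 ranked both higher, and ArgRS-m fell outside the 8015 strongest peaks of replicate 2. The 4007 strongest reproducible peaks held 6 of 20 cytosolic genes (SerRS, IleRS, GluProRS, ThrRS, MetRS and AspRS) and 0 of 15 mitochondrial genes. The share of all genes was 11.6%, and with 15 genes a count of 0 cannot be set apart from it. ProRS-m, strong in both replicates, is not in the reproducible list, as described below.

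**Figure D2:**
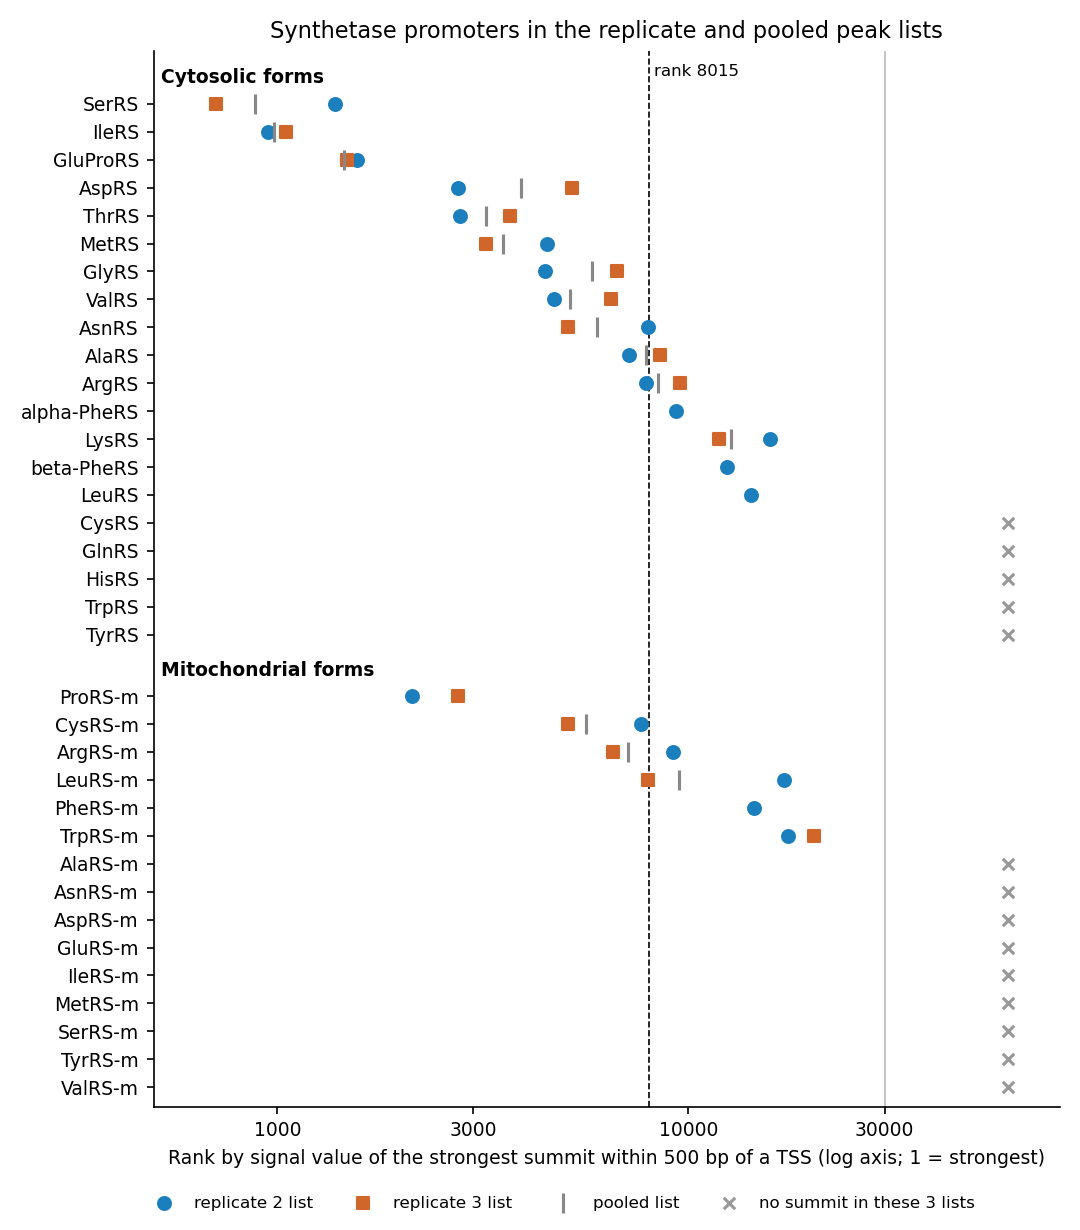
Rank by signal value of the strongest summit within 500 bp of a TSS for all 35 genes in replicate 2 (circles), replicate 3 (squares) and the pooled list (bars), on a log axis; the dashed line is rank 8015, the last of the reproducible list, and crosses mark genes with no summit in these lists. SerRS, IleRS and GluProRS lie at the strong end, and ProRS-m has circles and squares but no bar.

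ProRS-m, the mitochondrial proline enzyme, was strong in both replicates and absent from the pooled and reproducible lists. Its signal value was 190.7 in replicate 2, at rank 2129, and 257 in replicate 3, at rank 2758. The summits lay 126 and 129 bp upstream of its TSS, 3 bp apart, on 3L at 2651976 and 2651979. The nearest pooled summit was 15.3 kb away. Such absence was rare: of the 2563 replicate 2 peaks ranked 3000 or better that overlapped a replicate 3 peak ranked 3000 or better, 4 overlapped no pooled peak (0.156%). The 8015 reproducible summits are the 8015 pooled summits with the highest signal values, so the 2 lists are not separate evidence. A gene missing from the pooled list is missing from the reproducible one as well. The cause of the absence was not tested.

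The 22 other genes without a reproducible summit fell into weaker classes. ArgRS, LysRS and LeuRS-m had a summit in the pooled list, at ranks 8455, 12705 and 9506. TrpRS-m had one in both replicate lists, at ranks 17459 and 20151, but none in the pooled list. LeuRS, alpha-PheRS, beta-PheRS and PheRS-m had a summit in replicate 2 alone, at ranks from 9335 to 14422. alpha-PheRS and beta-PheRS encode the chains of the cytosolic phenylalanine enzyme, and neither was occupied. In none of these 3 lists was there a summit at CysRS, GlnRS, HisRS, TrpRS and TyrRS, nor at AlaRS-m, AsnRS-m, AspRS-m, GluRS-m, IleRS-m, MetRS-m, SerRS-m, TyrRS-m and ValRS-m. That is 5 of 20 cytosolic and 9 of 15 mitochondrial genes. The share of all genes with none in the 3 lists was not counted. In the full replicate 2 list alone, the same 5 and 9 members had no summit, against 7613 of all 13968 genes. The mitochondrial count is near that share. Over the 23 genes without a reproducible summit, the nearest such summit lay a median of 8.12 kb away, from 1.87 kb at alpha-PheRS to 18.7 kb at LeuRS. A gene with no summit in these lists may still carry weaker signal, since each full list ends at 30000 peaks and the read depth is unknown.

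Summits sat a short way upstream of the start sites, as most promoter summits did over all genes. Over the 13 reproducible summits at synthetase genes, the median distance to the nearest TSS of the gene was 127 bp, and 12 lay upstream (92.3%). Over all 3277 pairs of a gene and a promoter summit the median distance was 165 bp and 83.0% lay upstream. IleRS on 3L (FBgn0027086, TSS 22288665) had its summit at 22288494, 171 bp upstream. GluProRS on 3R (FBgn0005674, TSS 23958391) had its summit at 23958518, 127 bp upstream, and the replicates placed it within 4 bp of that. At SerRS on 2L (FBgn0031497, TSS 3037403) the summit at 3037392 lay 11 bp downstream, inside the annotated 5′ UTR. The AlaRS summit, 91 bp upstream of its TSS, lay inside the 3′ UTR of the gene ahead of it, CG13392. ValRS had the most distant summit, 351 bp upstream.

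The replicate lists placed most of these summits alike. For 11 of the 13 reproducible summits, both replicate lists had a summit of the same gene within 100 bp. The exceptions were GlyRS, where replicate 2 lay 139 bp away, and the weaker AspRS summit, where replicate 3 lay 118 bp away. SerRS differed by 0 and 2 bp, GluProRS by 2 and 4 bp, and IleRS by 1 and 7 bp. The reproducible list was itself made from both replicates, so these distances are not separate evidence. In the pooled list, AlaRS, ArgRS, ArgRS-m, AsnRS, AspRS, GlyRS and ValRS each had a pair of neighbouring summits 200 to 248 bp apart, and in all 7 pairs the intervals overlapped. Where a replicate list holds such a pair, a summit within 100 bp is easily met. Each gene was counted once.

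**Figure D3:**
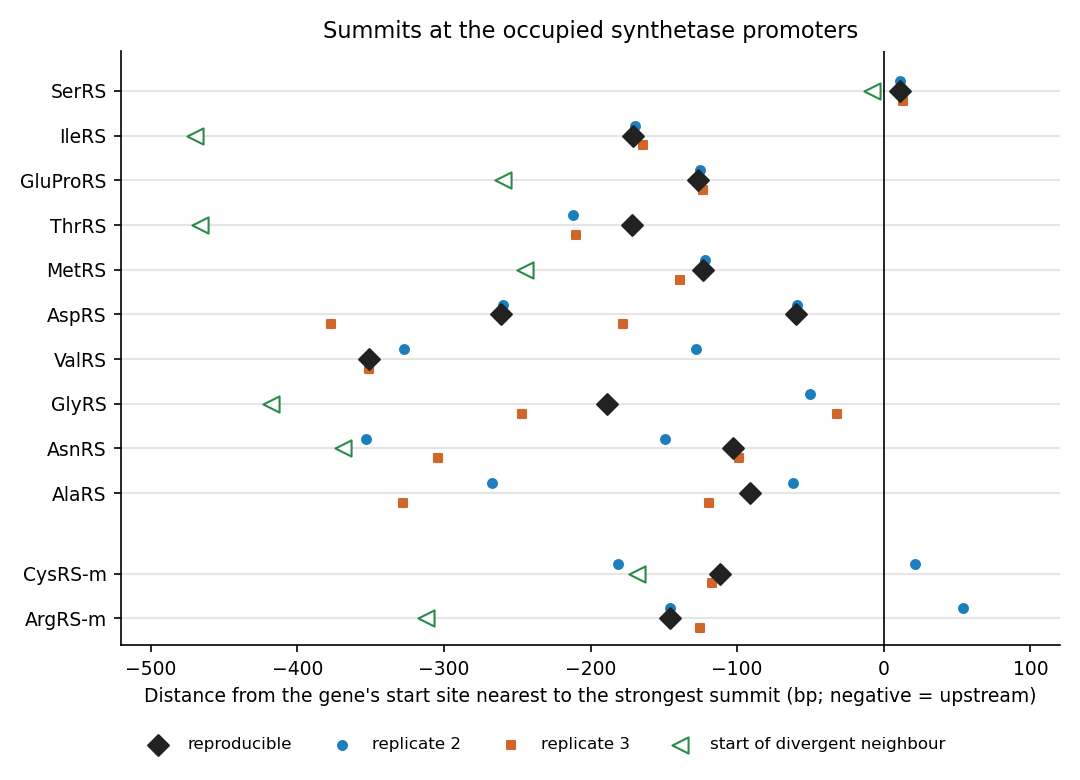
Position of summits at the 12 occupied genes, in bp from the TSS nearest to the strongest reproducible summit, upstream to the left; diamonds are reproducible summits, circles replicate 2, squares replicate 3 and triangles the start of a divergent neighbour within 500 bp (not drawn for AspRS, which has several starts). Nearly all diamonds lie between 60 and 351 bp upstream, most of them between the gene and its neighbour.

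Nearly all of these summits were shared with another gene. Of the 13 summits, 12 lay within 500 bp of a TSS of another protein-coding gene (92.3%), against 31.4% of all 2456 promoter summits. Counted by gene and summit, as the members were reached through their genes, the share was 12 of 13 pairs, against 48.6% of all 3277 pairs. The AlaRS summit was the exception. IleRS shared its summit with Hem, which encodes a subunit of the WAVE actin regulator, and GluProRS with AP-1sigma, a clathrin adaptor subunit. GlyRS shared its with Plp, a centrosome protein gene, and sstn. CysRS-m shared its with O-fut1, the fucosyltransferase that modifies Notch, and ValRS with the histone demethylase gene Kdm4B. SerRS shared its with CG17260, MetRS with CG15084, AsnRS with the dynactin gene DCTN6-p27, ThrRS with Patsas, AspRS with Nmda1, and ArgRS-m with CG17816. To which gene of a pair such a summit belongs cannot be told apart from position alone. When a summit counted for the closest TSS alone, 7 cytosolic genes (35%) and 1 mitochondrial gene (6.67%) kept one, against 15.8% of all genes. AspRS, MetRS, ValRS and CysRS-m lost theirs to the neighbour. Some of these calls were close. The MetRS summit lay 123 bp from MetRS and 122 bp from CG15084, and the GluProRS summit, which was kept, 127 bp from GluProRS and 133 bp from AP-1sigma.

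Head-to-head gene pairs were common among the members, and over all genes those in such pairs were occupied more often. A neighbour on the opposite strand starting within 500 bp upstream was present at 15 of 20 cytosolic genes (75%) and 7 of 15 mitochondrial genes (46.7%), against 27.3% of all genes. Over all genes, 36.6% of those with such a neighbour were occupied and 14.4% of those without. Among cytosolic genes the counts were 8 of 15 with and 2 of 5 without a neighbour. Among mitochondrial genes they were 2 of 7 with and 0 of 8 without. These classes hold few genes. ValRS counts as occupied without a neighbour, although its summit lies 162 bp from a start of Kdm4B. Split at a gap of 150 bp, a limit chosen after the values were seen, 8 of 14 members with a wider gap were occupied and 2 of 8 with a gap up to the limit, against 40.5% and 28.6% of all genes. Among occupied genes the gap was 470 bp at IleRS and 466 bp at ThrRS, but 8 bp at SerRS, which had the strongest summit. Among the others it was 35 bp at AlaRS-m, 53 bp at AsnRS-m and 55 bp at TyrRS-m, but 331 bp at ArgRS, 295 bp at TyrRS and 216 bp at LeuRS. AspRS, with a gap of 38 bp to Lfg, counts as occupied with a neighbour, although its reproducible summits lie at another start site of the gene, inside it. The counts over all genes follow the same rule by gene. The part of gene arrangement in the difference between the forms was not tested.

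Genes with more than 1 start site were occupied more often, among the members and over all genes. The calling rule itself favours them, since each further start site adds a window in which a summit counts. Of the 9 members with more than 1 TSS, 6 were occupied, and of the 26 with a single TSS, 6 were. Over all genes these shares were 35.6% and 15.0%. More than 1 TSS was annotated at 7 of 20 cytosolic genes, of which 6 were occupied, and at 2 of 15 mitochondrial genes, of which 0 were. Among genes with a single TSS, 4 of 13 cytosolic and 2 of 13 mitochondrial genes were occupied. The part of TSS number in the difference between the forms was not tested.

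The summits of these genes lay in DNA poor in G and C. Within 50 bp of the summit the G+C content had a median of 23.8% over the 13 synthetase summits, against 30.7% over all promoter summits and 29.7% over the whole reproducible list. It was under 25%, a limit set after the values were seen, at 8 of 13, against 24.6% of promoter summits. GluProRS had 20.8%, and AlaRS, AsnRS, MetRS and CysRS-m had 21.8% each. ArgRS-m was the highest with 48.5%, followed by AspRS with 34.7% and 42.6%. The ArgRS-m and GluProRS sequences printed above lie at the highest and the lowest of these values, and the other mitochondrial gene, CysRS-m, is near the low end. Over the 300-base promoter windows, from 250 bases before to 50 after each TSS, the median was 35.0% for the 19 promoters of occupied members and 35.8% for the 26 promoters of the others, against 39.3% of all 19630 promoters.

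**Figure D4:**
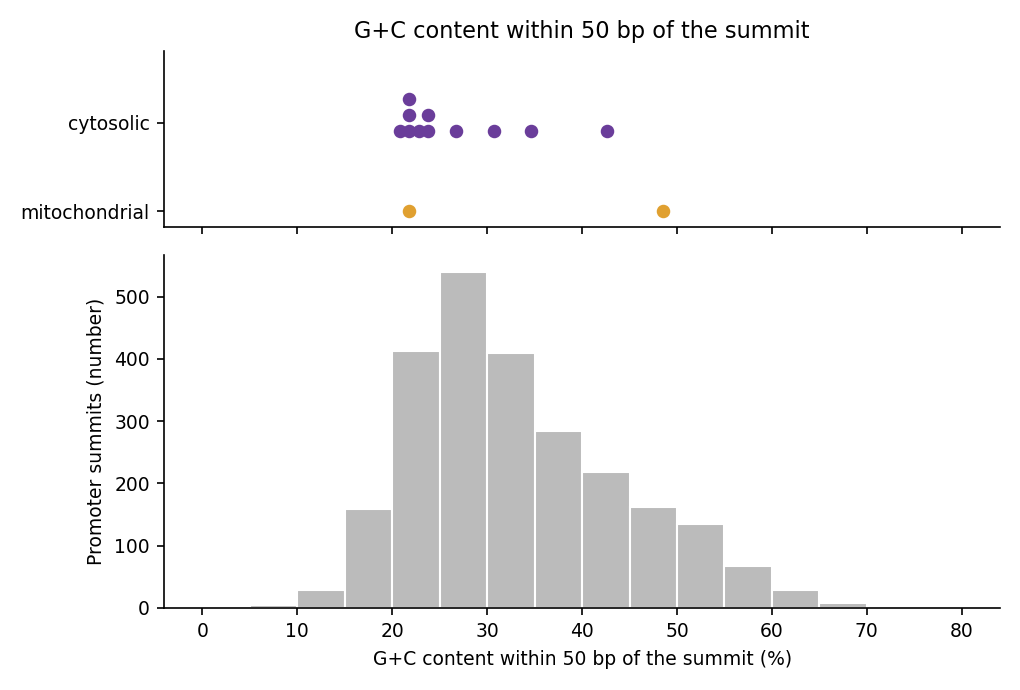
G+C content within 50 bp of each of the 13 synthetase summits (points, by form, stacked where equal) above the number of promoter summits per 5% step (bars). Of the 13 points, 9 lie below the promoter median of 30.7%, ThrRS lies at it, and AspRS (34.7% and 42.6%) and ArgRS-m (48.5%) lie above it.

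Sequence words were rare at the summits themselves. Both strands were searched for DRE (TATCGATA), Motif 1 (GGTCACACT), the E-box CACGTG, and the amino acid response word TGATGNAA. The ETS word was CCGGAA, with CAGGAA as its other form, and the control was the same letters reversed, AAGGCC with AAGGAC as its other form. The homeodomain core TAATTA and the GATA word AGATAA completed the set. Within 50 bp of the 13 summits, DRE, ETS and TAATTA were found at 1 each and the other 5 words at 0. The ETS word there was at ValRS, and DRE and TAATTA at AspRS. The ETS word was within 50 bp of 4.56% of all promoter summits and DRE of 1.30%. With 13 summits, 1 match each cannot be set apart from these shares. At IleRS the word CAGGAA lay in the flank shown above, farther than 50 bp from the summit.

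In the promoter windows, DRE, the element of housekeeping promoters bound by DREF, was the most frequent of the housekeeping words. It was found in 7 of 28 cytosolic promoters (25%) and 1 of 17 mitochondrial promoters (5.88%), against 7.98% of all promoters. By gene it occurred at AlaRS, ArgRS, AspRS, IleRS, TrpRS and PheRS-m. Of these, AlaRS, AspRS and IleRS were occupied. Motif 1, another housekeeping element, was found in 0 of 19 promoters of occupied members and 5 of 26 promoters of the others, against 5.22% of all. It occurred at AsnRS-m, AspRS-m, GlnRS, ProRS-m and beta-PheRS. The ETS word was in 4 of 28 cytosolic (14.3%) and 2 of 17 mitochondrial promoters (11.8%), against 15.5% of all promoters. The reversed control was in 2 of the 45 synthetase promoters (4.44%), both of LysRS, against 12.5%. Of the other words, the E-box was in 3 (6.67%, against 786 of all 19630 promoters), at GlnRS, LeuRS-m and ThrRS. TGATGNAA was in 3 (6.67%, against 4.06%), at CysRS, ThrRS and beta-PheRS. TAATTA was in 6 (13.3%, against 18.9%) and AGATAA in 8 (17.8%, against 3533 of 19630 promoters). A match describes these letters and no binding event, and promoters of 1 gene overlap in places.

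Genes of the multi-synthetase complex and the other cytosolic genes had equal shares in the reproducible list. The 8 enzymes taken as its members, a list drawn up after the values were seen, were ArgRS, AspRS, GlnRS, GluProRS, IleRS, LeuRS, LysRS and MetRS. Of these, 4 were occupied (50%), and of the 12 other cytosolic genes, 6 were (50%), against 20.5% of all genes. In the full pooled list the counts were 6 of 8 (75%) and 6 of 12 (50%), against 40.3% of all genes. ArgRS and LysRS were the complex genes added there. The scaffold genes AIMP1, AIMP2 and AIMP3 had no reproducible summit.

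Of 33 related genes, 8 had a reproducible summit (24.2%), against 20.5%. Of 10 complex and mitochondrial partners, 2 were occupied: GatA, a subunit of the enzyme that makes mitochondrial glutaminyl-tRNA, with a signal value of 452, and Slimp, a synthetase-like mitochondrial protein, with 152. Of 10 genes for the response to uncharged tRNA or for tRNA delivery to the ribosome, 3 were: crc, the fly ATF4 gene, with 468, eEF1gamma with 401 and eEF1alpha1 with 218. Gcn2, the kinase that senses uncharged tRNA, had none. Of 13 genes for tRNA maturation and modification, 3 were, among them Archease with 356 and RNaseZ with 224.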

How the data were processed

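ChIP-seq of Ets96B-eGFP was available for 2 biological replicates of 1 group. The authors deposited 4 peak lists on dm6: 1 per replicate, 1 pooled, and 1 of reproducible peaks past an irreproducible discovery rate threshold. The deposited descriptions trace a replicate list to that replicate's alignment plus a control alignment, whose reads were not analysed here, and the pooled list to both replicates. The sources used here do not give aligner, caller or threshold. The deposited signal value ranked peaks within a list. The deposited −log10 q-value was 4.42 for all 8015 reproducible peaks and ranked none. Full lists end at 30000 peaks, so depth is unknown.

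Summits (narrowPeak column 2 plus column 10) were matched to 19630 TSSs of Ensembl release 115 with Python 3.11.15, and recovered 200 of 200 planted positions on simulated data. Start codons read from the RefSeq genome were ATG in 99.9% of 16237 cases, so annotation and genome share coordinates. All coordinates are 1-based. Intervals are exact Clopper-Pearson at 95% (SciPy 1.17.1). No contrast between conditions exists, and nothing was tested. Every member was named, with full values for those with a reproducible summit. Sequences were planned for up to 3 members of each form by signal value. SerRS, whose summit lies in a UTR, was passed over for ThrRS, and ProRS-m was added, both after the values were seen. Genes on 1 chromosome arm, CysRS-m among them, were left out of the plan. Promoter windows were read from the genome. The values of 1 related gene are not reported here. The members, lists and words were chosen with earlier results of these data known.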

Additional observations from a re-analysis of the deposited data

How the results depend on the processing

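The count of occupied members was 12 of 35 as reported and ran from 6 to 17 over the settings. With all pooled peaks it was 15 (42.9%), close to the 40.3% of all genes. The cytosolic share was above the mitochondrial one in 12 of 12 settings, the reported one included. These settings share most of their peaks. With 1 replicate left out, the members occupied were 13 and 13, the cytosolic ones 9 to 11, the mitochondrial ones 2 to 4, and all genes 2852 to 3007. The median distance was 125.5 to 134 bp and the upstream share 85.7% to 92.9%. The 4007 strongest peaks gave 6 members, 6 cytosolic, 0 mitochondrial and 1620 genes in all. Mitochondrial genes numbered 5 with a summit in both full replicate lists and 1 with nearest TSS only, where the median distance was 136.5 bp. All genes numbered 1896 with a 200 bp window, 5625 with all pooled peaks and 5118 with both full lists. The DRE word was in the promoter of 6 members and at the summit of 1. The cause of these shifts was not tested. A summit among the strongest peaks of both replicates was a setting chosen after seeing the data. No paired analysis was possible because there is 1 group. Small numbers of genes and the unknown depth limit all shares.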
